A study of Homo sapiens with 6 samples.

Results

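The genes that set the pace of G1, the phase between mitosis and DNA synthesis, were followed in A549 cells after SNHG17, a long noncoding RNA, had been lowered by RNA interference. They comprised 10 genes chosen by symbol: the D cyclins CCND1, CCND2 and CCND3, the E cyclins CCNE1 and CCNE2, the kinases CDK2, CDK4 and CDK6, and the inhibitors CDKN1B and CDKN1C. All 10 were present among the 54261 genes of the count table, and 9 had enough reads to be tested. The study compared 3 libraries from cells given an siRNA against SNHG17 (si-SNHG17) with 3 control libraries (si-NC). The labels give no siRNA sequence or dose and no time after transfection. All 6 libraries came from A549, an established human lung adenocarcinoma line grown in serum-containing medium, so every value describes 1 cell line. The labels do not say that libraries of a group came from separate cultures, so the p-values rest on library-to-library spread that could be technical alone.

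D cyclins bind CDK4 or CDK6 in response to growth signals, and these complexes begin the phosphorylation of the retinoblastoma protein, which otherwise holds E2F transcription factors in check. E cyclins bind CDK2, complete that phosphorylation and start DNA replication. CDKN1B (p27) and CDKN1C (p57) bind cyclin-CDK complexes and restrain CDK2 above all, whereas INK4 proteins such as the product of CDKN2A bind CDK4 and CDK6 directly. A549 is known to have lost the CDKN2A locus, as background to the values below.

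The libraries held 8643076 to 12477214 counts. SNHG17 itself had 7.82, 8.39 and 11.3 CPM (counts per 1000000 reads, TMM-scaled) in si-SNHG17 libraries, against 38.7, 36.2 and 51.4 CPM in si-NC libraries. It was lower in every si-SNHG17 library than in every si-NC library. Pairs of libraries differed by 2.25 to 8.85 chi-square units per degree of freedom within groups and by 38.4 to 55.3 between groups. The pairs that included si-NC replicate 3 gave the 2 highest values within groups, so results that turn on this library are given without it as well. All 6 epithelial markers were detected, 3 of them lower and 2 higher in si-SNHG17 by the test below (83.3%, against 39.1% of all genes tested). They summed to 9728.4 to 10350.4 CPM in si-SNHG17 libraries and 12122.8 to 14188.7 CPM in si-NC libraries, whereas EPCAM had 0.479 to 1.71 CPM over all libraries. Of 12 markers of blood, stromal and endothelial cells, PTPRC, CD3E, COL1A2 and COL3A1 had no read in any library. These 12 summed to 42.4 to 51.9 CPM in si-SNHG17 libraries and 55.5 to 72.2 CPM in si-NC libraries, most of it CD14 and COL1A1. By the same test CD14 was lower in si-SNHG17 (log2 fold change -0.88, edgeR adjusted p = 0.000169) and COL1A1 did not pass. The part of either marker list in the results was not tested.

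Of the 9 genes tested, CCND3, CDK2 and CDK4 fell and CCNE1 rose in si-SNHG17 cells. CCND3 changed most among the 4, to 55.0% of its control level. CCND1, CCNE2, CDK6, CDKN1B and CDKN1C did not pass an adjusted p of 0.05. The test was edgeR's quasi-likelihood test over all 15614 genes with enough reads, adjusted by the Benjamini-Hochberg method. The same threshold called 39.1% of all genes tested, 19.6% higher and 19.6% lower, so a share of 4 in 9 was near the background. The median log2 fold change was -0.31 over the 9 genes and 0.01 over all genes tested. Each of the 4 calls held under all 14 alternative settings, with a largest adjusted p of 7.59e-05 for CCND3, 0.0145 for CCNE1, 0.00232 for CDK2 and 0.0356 for CDK4 (edgeR, DESeq2 or limma-voom). In bulk RNA, fewer cells of a given phase and less RNA per cell cannot be told apart.

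**Figure D1:**
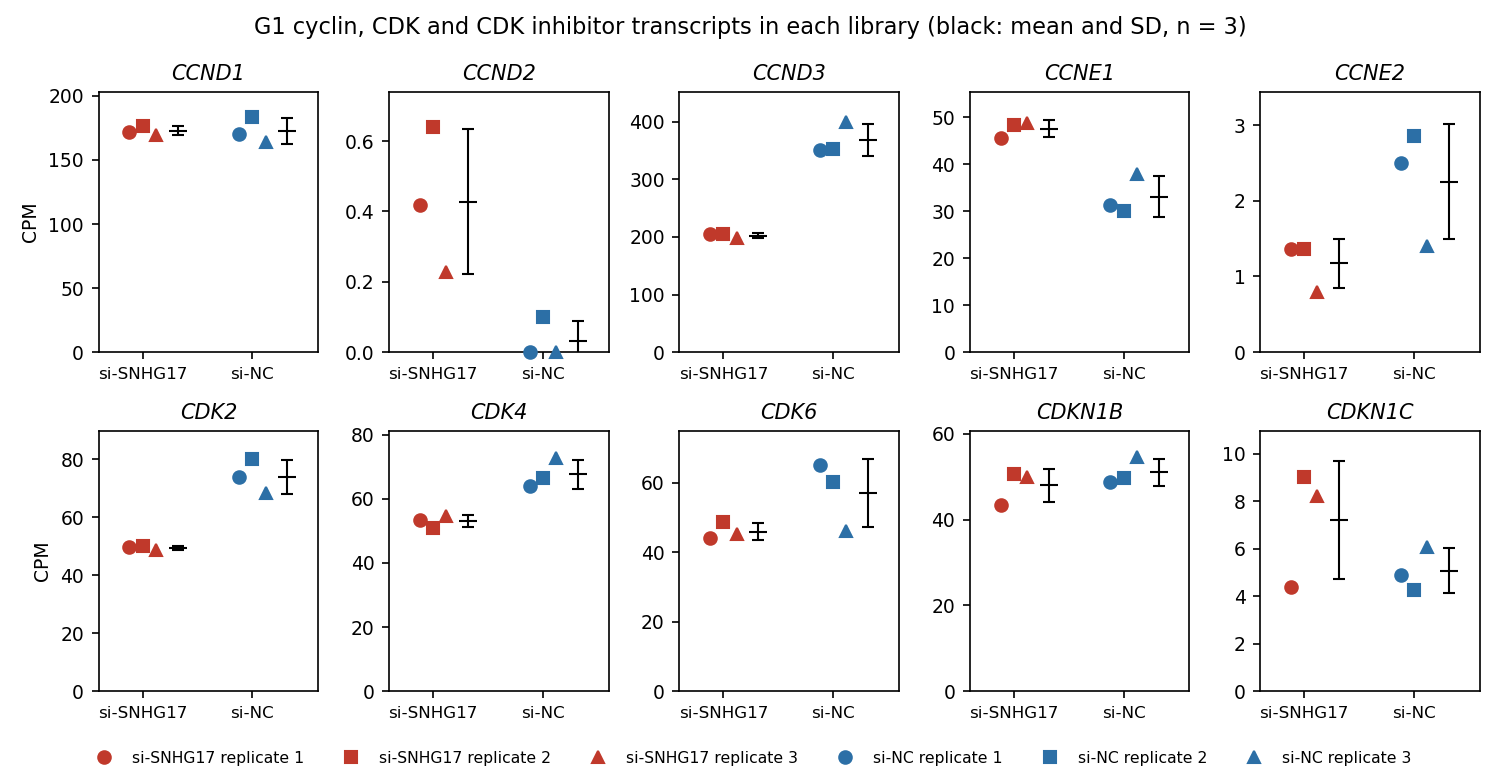
CPM of each gene (vertical axes, linear, each from 0) in the 3 si-SNHG17 libraries (red) and the 3 si-NC libraries (blue), with symbols for replicates 1 to 3 and black marks for the mean and SD. CCND3, CDK2 and CDK4 sit lower and CCNE1 higher in all si-SNHG17 libraries, whereas CDK6 of si-NC replicate 3 (46.0 CPM) lies among the si-SNHG17 libraries.

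Promoter sequence was available for CCND3, CDK4, CDK6, CCNE1 and CDKN1B, in 8 windows of 250 bases before a transcription start (RefSeq, GRCh38.p14). Of the genes that passed the test, 3 had a window, and 1 window each is shown 5′ to 3′ so that the sequence upstream of a falling D cyclin, its falling kinase and the rising E cyclin can be read side by side. CCND3 has 3 starts in the table, and the window shown, chr6:41941809-41942058 (minus strand), is the one nearest to the start of its principal transcript. The CDK4 window is chr12:57752311-57752560 (minus strand) and the CCNE1 window chr19:29811741-29811990 (plus strand). Capitals mark the GC box GGGCGG, read by SP family factors, and the E-box CACGTG, read by MYC and related factors, on either strand; no marked motif overlapped another. The E-box was added to the search after the sequences had been seen.
CCND3: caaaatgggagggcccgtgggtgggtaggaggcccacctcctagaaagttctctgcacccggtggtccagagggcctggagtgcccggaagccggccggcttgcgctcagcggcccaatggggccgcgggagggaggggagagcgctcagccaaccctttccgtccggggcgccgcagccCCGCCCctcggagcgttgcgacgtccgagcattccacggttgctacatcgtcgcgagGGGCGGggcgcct
CDK4: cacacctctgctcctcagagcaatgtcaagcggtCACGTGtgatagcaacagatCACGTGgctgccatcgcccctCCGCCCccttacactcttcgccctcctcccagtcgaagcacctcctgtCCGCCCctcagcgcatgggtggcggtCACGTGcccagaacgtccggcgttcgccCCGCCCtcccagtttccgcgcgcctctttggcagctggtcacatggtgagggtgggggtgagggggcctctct
CCNE1: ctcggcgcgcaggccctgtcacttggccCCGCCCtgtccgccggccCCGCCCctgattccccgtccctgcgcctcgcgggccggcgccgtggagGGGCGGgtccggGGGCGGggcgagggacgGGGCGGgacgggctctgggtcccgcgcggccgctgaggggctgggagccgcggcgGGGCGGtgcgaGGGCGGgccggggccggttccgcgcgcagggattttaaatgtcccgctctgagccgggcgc

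The CDK4 window held 3 E-boxes, beginning 216, 196 and 101 bases before the start, and 3 GC boxes. CDK4 is known as a MYC target in human cells through E-boxes of its promoter. No other window of these genes held CACGTG, which occurred in 6.34% of all 35116 promoter windows. The CCNE1 window held 7 GC boxes, and the CCND3 window shown held 2, while the other CCND3 windows held 5 and 0. Of all promoter windows, 42.6% held at least 1. None of the 8 windows held an E2F-type site in the spellings TTTCCCGC, TTTCGCGC, TTTGCCGC or TTTGGCGC, on either strand, which occurred in 2.79% of all windows. The same spellings stood in 6 of 18 windows of known E2F target genes of S-phase entry (11 genes). At a share of 2.79%, absence from 8 windows says little about these genes, and bases after the start were not searched. The CHR motif TTTGAA, also searched on both strands, stood in none of the 8 windows and in 13.3% of all windows. It was likewise absent from the 18 windows of the E2F target genes. These matches are descriptions of letters and do not show binding.

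CCND3 encodes cyclin D3 and lies on chromosome 6 (GRCh38, 41934933 to 42050357, minus strand). It had 204.9, 204.9 and 197.4 CPM in si-SNHG17 libraries, against 350.3, 353.6 and 400.5 CPM in si-NC libraries. The groups were far apart, and the si-SNHG17 libraries were the more closely spaced. The means were 202.4 ± 4.35 CPM in si-SNHG17 and 368.1 ± 28.1 CPM in si-NC (SD, n = 3 each), with a log2 fold change of -0.86 (standard error 0.08, edgeR adjusted p = 1.41e-06). The pseudogene CCND3P1, which could share reads with CCND3, had no more than 1.58 CPM in any library.

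CCND1 encodes cyclin D1, the D cyclin most often amplified in cancers, on chromosome 11 (69641087 to 69654474, plus strand). It had 171.8, 176.5 and 169.8 CPM in si-SNHG17 libraries, against 169.9, 183.5 and 164.3 CPM in si-NC libraries. The si-SNHG17 values all lay within the si-NC range. The log2 fold change was 0.00, with a 95% interval from -0.16 to 0.16 and an edgeR adjusted p of 0.990, so the interval left room for differences of that size in either direction. CCND1 shares 10.3% of its exonic bases with LTO1 on the opposite strand.

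CCND2 encodes cyclin D2 and had few counts. It had 4, 8 and 2 counts in si-SNHG17 libraries, against 0, 1 and 0 in si-NC libraries, too few for the low-count filter. The sums of 14 and 1 counts gave a ratio of 13.4 with an exact conditional 95% interval from 2.04 to 567.4, for counting error only. With no low-count filter edgeR gave CCND2 an adjusted p of 0.0353, on counts of 0 in 2 of 3 si-NC libraries. Its level per kb was the lowest of the 10 genes in both groups. CCND2 shares 13.8% of its exonic bases (989 of 7157) with AC008012.1 on the same strand, and how the counting assigned reads from those bases was not tested.

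The D cyclins were also compared as a pool. Levels were divided by the length of 1 principal transcript a gene (GENCODE release 29) to compare genes. CCND3 averaged 97.1 ± 2.09 CPM per kb in si-SNHG17 and 176.6 ± 13.5 CPM per kb in si-NC, whereas CCND1 averaged 40.1 CPM per kb in both. The 3 D cyclins summed to 138.2, 139.4 and 134.1 CPM per kb in si-SNHG17 libraries, against 207.5, 212.2 and 230.2 CPM per kb in si-NC libraries. CCND3 supplied 70.7% ± 0.321 of that sum in si-SNHG17 and 81.4% ± 1.79 in si-NC, and the groups did not overlap (exact two-sided permutation p = 0.1, the smallest that 3 against 3 libraries allow). It was the most abundant D cyclin transcript in every library.

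The log2 ratio of CCND1 to CCND3 within a library, which hardly depends on library scaling, was -0.25, -0.21 and -0.22 in si-SNHG17 and -1.04, -0.94 and -1.28 in si-NC. The difference of 0.86 (standard error 0.10) had the same exact permutation p of 0.1, and 0.2 after adjustment over the 4 ratios tested. Exact permutation p-values of shares and sums were not adjusted. The D cyclin sum, the CCND3 share and this ratio all use the CCND3 counts, so they are not separate results.

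**Figure D2:**
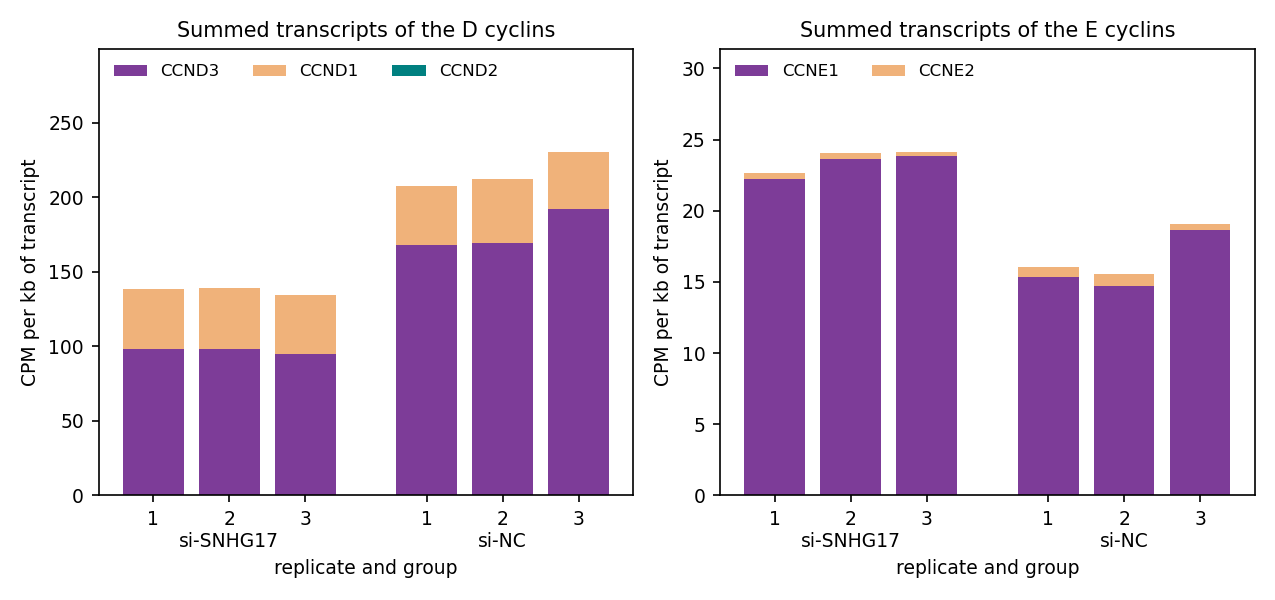
Stacked bars of CPM per kb of transcript for the D cyclins (left) and the E cyclins (right), 1 bar a library, with si-SNHG17 replicates 1 to 3 before si-NC replicates 1 to 3. The D cyclin sum is 134.1 to 139.4 in si-SNHG17 and 207.5 to 230.2 in si-NC, and the E cyclin sum is 22.7 to 24.1 in si-SNHG17 and 15.5 to 19.0 in si-NC; CCND2 is too low to be visible.

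CDK4 and CDK6 encode the kinases that D cyclins activate. CDK4, on chromosome 12 (57747727 to 57756013, minus strand), had 53.4, 51.0 and 54.8 CPM in si-SNHG17 libraries, against 64.0, 66.4 and 72.7 CPM in si-NC libraries. No si-SNHG17 library reached the lowest si-NC library. The log2 fold change was -0.35 (standard error 0.09, edgeR adjusted p = 0.00704), the smallest in size of the 4 that passed. CDK4 shares 1369 of its 3168 annotated exonic bases (43.2%) with TSPAN31 on the opposite strand, and whether the counting used strand is not given in the sources used here. TSPAN31, a tetraspanin gene, had 46.9, 45.5 and 51.7 CPM in si-SNHG17 libraries, against 38.5, 39.2 and 33.2 CPM in si-NC libraries, so it rose (log2 fold change 0.38, adjusted p = 0.0104) where CDK4 fell. Reads from the shared bases could not be told apart without strand.

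CDK6, on chromosome 7 (92604921 to 92836594, minus strand), had 44.1, 48.6 and 45.1 CPM in si-SNHG17 libraries, against 65.0, 60.1 and 46.0 CPM in si-NC libraries. The groups overlapped because of si-NC replicate 3, while si-NC replicates 1 and 2 stood above every si-SNHG17 library. With all libraries the log2 fold change was -0.31 (standard error 0.12, edgeR adjusted p = 0.0583), and without si-NC replicate 3 it was -0.44 with an adjusted p of 0.000853. Over all alternatives the adjusted p ran from 0.000853 to 0.235. The log2 ratio of CDK6 to CDK4 overlapped between groups, with a mean of -0.21 in si-SNHG17 and -0.26 in si-NC (difference 0.05, standard error 0.21, exact permutation p = 0.9).

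CCNE1 encodes cyclin E1, the main activator of CDK2 at S-phase entry, on chromosome 19 (29811898 to 29824308, plus strand). It was the 1 gene of the 9 tested that passed the threshold as a rise, while CDKN1C (log2 fold change 0.51) did not pass. It had 45.5, 48.3 and 48.8 CPM in si-SNHG17 libraries, against 31.3, 30.0 and 38.0 CPM in si-NC libraries. Every si-SNHG17 library exceeded the highest si-NC library, again replicate 3. The means of 47.5 ± 1.80 and 33.1 ± 4.31 CPM (si-SNHG17 and si-NC, SD, n = 3 each) differed 1.44-fold, with a log2 fold change of 0.52 (standard error 0.11, edgeR adjusted p = 0.00192). Without si-NC replicate 3 the log2 fold change was 0.63.

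CCNE2 encodes cyclin E2, the close relative of cyclin E1, on chromosome 8 (94879770 to 94896678, minus strand). It had 13, 17 and 7 counts in si-SNHG17 libraries (1.36, 1.36 and 0.798 CPM), against 22, 29 and 15 counts in si-NC libraries (2.50, 2.86 and 1.40 CPM). The groups touched closely without overlapping, since si-NC replicate 3 lay just above the si-SNHG17 libraries. The log2 fold change of -0.91 carried a standard error of 0.37 at these low counts, and the edgeR adjusted p was 0.0655. Over all alternatives the adjusted p ran from 0.0183, without si-NC replicate 3 (log2 fold change -1.17), to 0.248, without si-NC replicate 2 (-0.69). CCNE2 shares 37.0% of its exonic bases with INTS8 on the opposite strand, and INTS8 averaged 47.9 CPM in si-SNHG17 and 48.9 CPM in si-NC.

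The E cyclins lay on opposite sides of their controls, although CCNE2 did not pass the test with all libraries. Their log2 ratio, CCNE2 to CCNE1, was -4.63, -4.72 and -5.25 in si-SNHG17 and -3.40, -3.18 and -4.34 in si-NC. The groups did not overlap, with a difference of -1.22 (standard error 0.40, exact two-sided permutation p = 0.1, adjusted p = 0.2). CCNE1 made up 98.5% ± 0.436 of the E cyclin transcripts per kb in si-SNHG17 and 95.9% ± 1.72 in si-NC. How the counting treated reads from the bases that CCNE2 shares with INTS8 was not tested, so the share is approximate. The D cyclin sum was 6.10, 5.79 and 5.56 times the E cyclin sum in si-SNHG17 libraries, against 12.9, 13.7 and 12.1 times in si-NC libraries, which put the groups well apart (exact permutation p = 0.1).

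CDK2 encodes the partner kinase of the E cyclins and later of cyclin A, on chromosome 12 (55966769 to 55972784, plus strand). It had 49.7, 49.9 and 48.7 CPM in si-SNHG17 libraries, against 73.7, 80.0 and 68.3 CPM in si-NC libraries. The si-SNHG17 libraries lay within a narrow band below all si-NC libraries. The log2 fold change was -0.58 (standard error 0.09, edgeR adjusted p = 0.000202), which left 66.8% of the control level while its cyclin CCNE1 was at 143.6%. CDK2 shares 14.5% of its exonic bases with an antisense transcript and 2.29% with PMEL on the opposite strand. PMEL averaged 10.2 CPM in si-SNHG17 and 9.96 CPM in si-NC.

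CDKN1B encodes the inhibitor p27, on chromosome 12 (12715058 to 12722371, plus strand). It had 43.5, 50.6 and 49.9 CPM in si-SNHG17 libraries, against 48.8, 49.6 and 54.6 CPM in si-NC libraries. The groups overlapped, and the log2 fold change of -0.09 had a 95% interval from -0.30 to 0.13 (edgeR adjusted p = 0.518). CDKN1C encodes the inhibitor p57, on chromosome 11 (2883213 to 2885773, minus strand), a gene known for imprinted, maternal expression. It had 4.38, 9.03 and 8.20 CPM in si-SNHG17 libraries, against 4.90, 4.24 and 6.09 CPM in si-NC libraries. Replicates 2 and 3 of si-SNHG17 exceeded all si-NC libraries, and replicate 1 lay among them. The log2 fold change was 0.51 (standard error 0.26, edgeR adjusted p = 0.133). Over all alternatives the adjusted p ran from 0.0177, without si-SNHG17 replicate 1 (log2 fold change 0.77), to 0.451, without si-SNHG17 replicate 2 (0.30). The log2 ratio of CDKN1B to CDKN1C averaged 2.71 ± 0.41 in si-SNHG17 and 3.22 ± 0.17 in si-NC, with overlapping groups (exact permutation p = 0.2, adjusted p = 0.267).

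**Figure D3:**
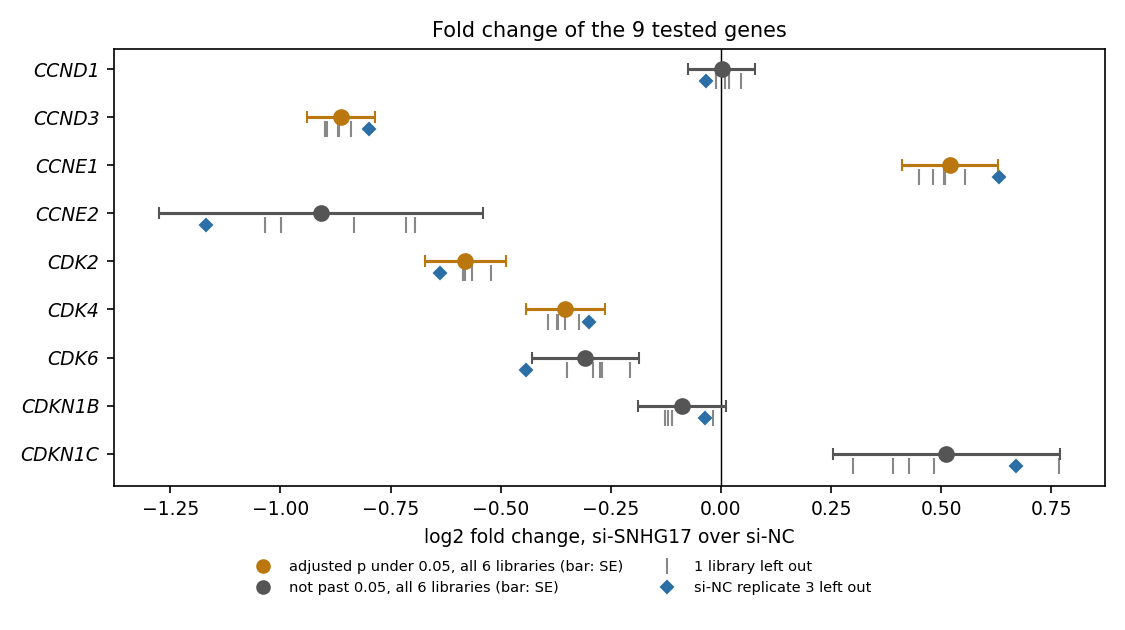
Log2 fold change of si-SNHG17 over si-NC for the 9 tested genes, with standard errors (orange past an adjusted p of 0.05, grey not), ticks for fits that left out 1 library and blue diamonds for the fit without si-NC replicate 3. CCND3 (-0.86), CDK2 (-0.58) and CDK4 (-0.35) lie left of 0 and CCNE1 (0.52) right of it; CDK6 and CCNE2 move further from 0 without si-NC replicate 3.

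The order of the 10 genes by CPM per kb was CCND3, CCND1, CDK4, CCNE1, CDK2, CDKN1B, CDK6, CDKN1C, CCNE2 and CCND2 in si-SNHG17. Only CDK6 and CDKN1C had overlapping ranges among neighbours in that order. In si-NC, CDK2 (32.2 ± 2.55 CPM per kb) came next to CDK4 (32.6 ± 2.16), and CCNE1 (16.2 ± 2.11) came after CDKN1B (19.2 ± 1.18). Both of these neighbouring pairs overlapped in si-NC. In si-SNHG17, CCNE1 averaged 23.3 ± 0.880 CPM per kb, above CDK2 at 21.5 ± 0.299 and CDKN1B at 18.1 ± 1.47. These ranges cover library-to-library spread only. CDK4, CDK2 and CCNE2 share 43.2%, 14.5% and 37.0% of their exonic bases with a transcript on the opposite strand. How the counting treated reads from those bases was not tested, so close ranks are not secure. Among the members, 5 of the 9 tested had groups that did not overlap, 1 higher and 4 lower, against a background of 49.4% of all genes tested (25.1% higher and 24.3% lower).

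Of 14 E2F target genes of S-phase entry, 12 fell and 1 rose, with a median log2 fold change of -1.02, where 39.1% of all genes tested passed. The exception was the licensing factor CDT1 (0.49), named after its value was seen. The helicase subunits MCM6 (log2 fold change -1.24) and MCM3 (-1.07), the origin licensing factor CDC6 (-1.09) and the ribonucleotide reductase subunit RRM2 (-1.38) had the smallest p, with edgeR adjusted p from 5.88e-08 to 6.89e-07. MCM6 averaged 66.0 ± 0.912 CPM in si-SNHG17 and 155.7 ± 6.39 CPM in si-NC. All 5 cyclin and CDK genes of S phase and mitosis fell, against 19.6% of all genes tested that were lower. CCNA2, the cyclin that follows cyclin E on CDK2, had a log2 fold change of -0.65, the mitotic cyclins CCNB1 and CCNB2 had -0.45 and -0.81, CCNF had -1.08 and the mitotic kinase CDK1 had -0.47.

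The RB and E2F family, which links G1 kinases to these targets, fell in 6 and rose in 2 of 11 genes tested (72.7%, against 39.1% over all genes tested), with a median log2 fold change of -0.64. E2F1, an activator of S-phase genes, averaged 14.6 ± 1.19 CPM in si-SNHG17 and 45.7 ± 1.59 CPM in si-NC (log2 fold change -1.64, edgeR adjusted p = 9.51e-08). E2F2, another activator, was at -1.01, and TFDP1, the DNA-binding partner of E2F proteins, at -0.91. E2F5, which acts with pocket proteins as a repressor, rose, with a log2 fold change of 0.74. The other rise was that of the pocket protein RBL2 (0.43), named after its value was seen, and the count of 2 rises became 1 without si-SNHG17 replicate 1 or 3 or without si-NC replicate 2 or 3.

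The other CDK inhibitors did not share a direction. CDKN1A (p21), which restrains CDK2, rose. It had 738.3, 870.3 and 747.4 CPM in si-SNHG17 libraries, against 482.1, 449.0 and 577.5 CPM in si-NC libraries. The groups did not overlap (log2 fold change 0.64, standard error 0.10, edgeR adjusted p = 0.000156). CDKN2C (p18), an INK4 inhibitor of CDK4 and CDK6, fell, with 13.1 ± 0.923 CPM in si-SNHG17 and 20.7 ± 0.865 CPM in si-NC (log2 fold change -0.66). CDKN2D (p19) averaged 14.1 ± 3.04 CPM in si-SNHG17 and 17.8 ± 3.98 CPM in si-NC and did not pass (adjusted p = 0.172). CDKN2A and CDKN2B had no read in any library. By counting error alone this allowed up to 0.240 to 0.347 CPM per library, but CCNY and CDK16 were also at 0 in all libraries, and whether the counting dropped genes was not tested, so the bound may not hold.

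Of 15 genes for the ubiquitin ligases that turn over G1 cyclins and p27, 5 fell and 2 rose, a share of 46.7% that was near the 39.1% over all genes tested. SKP2, the F-box protein that targets p27 for degradation, had 2.34 ± 0.143 CPM in si-SNHG17 and 5.08 ± 0.660 CPM in si-NC (log2 fold change -1.12, edgeR adjusted p = 0.00181). DDB1, an adaptor of CUL4 ligases, fell by 0.48 on the log2 scale. The other falls, named after their values were seen, were those of SKP1 (-0.35), CKS1B (-0.47) and RBX1 (-0.40), partners of SKP2 or of cullin ligases. AMBRA1 and FBXO31, both known to promote the degradation of D cyclins in human cells, rose by 0.55 and 0.77 on the log2 scale. The count of 5 falls became 3 without si-SNHG17 replicate 1, si-SNHG17 replicate 3 or si-NC replicate 2.

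Of 8 tested genes that activate or restrain CDKs by phosphorylation or folding, 2 rose and 2 fell, which was near the share over all genes tested (19.6% in each direction). The phosphatase CDC25B (log2 fold change 0.28) and the inhibitory kinase WEE1 (0.43) rose, while the phosphatase CDC25C (-0.39) and the inhibitory kinase PKMYT1 (-0.43) fell. The count of 2 falls became 0 without si-SNHG17 replicate 1 or 3, and 1 without si-NC replicate 2. Of 13 transcription regulators known to act on D cyclin or p27 genes, 6 rose and 2 fell (61.5%, against 39.1% over all genes tested). The count of 6 rises became 4 without any 1 of the si-SNHG17 libraries or without si-NC replicate 3, 5 without si-NC replicate 2, and 8 with library totals only. The AP-1 genes JUN (log2 fold change 1.51) and FOSL1 (1.08) rose, and YAP1 (-0.83) and MYC (-0.47) fell. MYC averaged 113.2 ± 2.90 CPM in si-SNHG17 and 156.8 ± 14.9 CPM in si-NC (edgeR adjusted p = 0.000614).

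Of 18 tested cyclins and CDKs outside G1 control, 8 rose and the other 10 did not pass, with a median log2 fold change of 0.25. All that passed, 44.4% of those tested, were higher, against 19.6% of all genes tested that were higher (39.1% in either direction). Without si-NC replicate 3, 2 of the list fell. CCNG1, which encodes cyclin G1, averaged 153.4 ± 10.4 CPM in si-SNHG17 and 81.3 ± 0.744 CPM in si-NC (log2 fold change 0.92). On the log2 scale CCNK, the partner of the transcriptional kinases CDK12 and CDK13, rose by 0.53, and the kinases CDK17 and CDK18 rose by 0.66 and 0.57.

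**Figure D4:**
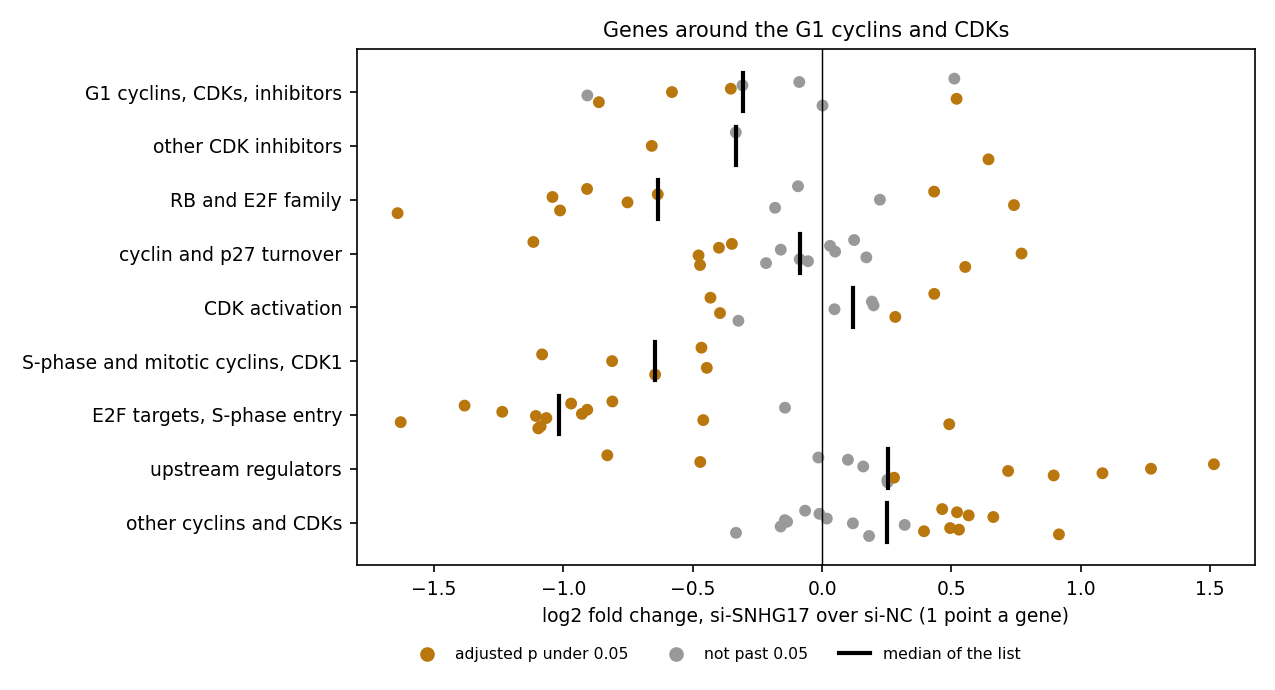
Log2 fold change of si-SNHG17 over si-NC, 1 point a gene, for the G1 genes and 8 further lists, orange where the adjusted p was under 0.05, with black bars for list medians. The S-phase entry genes (median -1.02) and the S-phase and mitotic cyclins (median -0.65) lie mostly or wholly left of 0, and the other cyclins and CDKs (median 0.25) mostly right of it.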

How the data were processed

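Total RNA of 6 A549 samples was sequenced as single-end reads on an Ion Proton instrument, per the labels' protocols. The table the authors deposited holds raw read counts for each gene, made on GRCh38 per the submitters' processing notes. For the aligner, counter, annotation and strand setting: not given in the sources used here. Groups came from the sample titles, which name the columns. Genes passing edgeR's filterByExpr (15614 of 54261) were scaled by TMM (factors 0.975 to 1.02) and tested with edgeR 4.0.16 (glmQLFit, glmQLFTest, group only, R 4.3.3), with Benjamini-Hochberg adjustment over all of them and a threshold of 0.05. Standard errors and 95% intervals were derived from the quasi-likelihood F statistic. Ratios used log2(CPM + 0.5). The interval of the CCND2 ratio and the floors (3 counts for a count of 0) cover counting error only. The procedure was also run on simulated data with known changes, in far fewer genes than passed here, and its outcome is not used as support. Lengths and exons came from GENCODE release 29 (GRCh38), by symbol. Alternatives were 3 other scalings, 2 other filters, DESeq2 1.42.0, limma-voom (limma 3.58.1), a replicate block and leaving out each library. The genes, lists and rule for named genes (every member and, in most other lists, the 4 smallest p; every tested gene among other CDK inhibitors and later cyclins) were chosen with earlier results of these data known.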

Additional observations from a re-analysis of the deposited data

How the results depend on the processing

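SNHG17 was lower in all 14 alternatives, from -2.37 to -2.04 on the log2 scale. CCND3, CCNE1, CDK2 and CDK4 kept their direction and passed the threshold in all 14. Over the fits without 1 library, CCND1 ran from -0.0345 to 0.0456, CDKN1C from 0.30 to 0.77, CCNE2 from -1.17 to -0.69 and CDK6 from -0.44 to -0.21, the genes past the threshold numbered 1 to 2 higher and 3 to 5 lower among the G1 genes, 1 to 2 higher in the RB and E2F list, 3 to 5 lower in the turnover list, 0 to 2 lower in the CDK activation list and 0 to 2 lower among the other cyclins and CDKs. CCND1 was at -0.0003 with upper-quartile scaling; its sign has no call and the cause was not tested. With no low-count filter CDK6 passed (-0.29, adjusted p = 0.0414 by edgeR) and 2 G1 genes were higher, since CCND2 was then tested. To check the pairing, deviations from the group means were correlated between same-numbered libraries (0.07, -0.13 and -0.11), and each si-SNHG17 library correlated best with another number, so the numbers were not taken to pair libraries. The replicate block called 5579 genes, 5515 of them shared with the 6112 called without it, and CCNE2 passed (-0.94, edgeR adjusted p = 0.05 after rounding). Genes called ran from 4911 to 6601 over the fits without 1 library. Library totals without scaling made 55.5% of calls higher, against 50.0%, and moved the median of all genes to 0.05. The low counts of CCNE2, CDKN1C and CCND2 limit what their tests can show.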

Other observations

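Several partners of these genes had few or no reads. RB1, the retinoblastoma gene, had 16, 9 and 8 counts in si-SNHG17 libraries and 6, 10 and 16 in si-NC libraries. CCNH, the cyclin of the CDK-activating kinase, had 0 counts in all si-SNHG17 libraries and 2, 1 and 0 in si-NC libraries, while its partner kinase CDK7 was tested and had a log2 fold change of 0.20 (edgeR adjusted p = 0.131). CCNY and CDK16, a cyclin and its kinase partner, had no read in any library. How the counting treated these genes was not tested. E2F3 had 6, 9 and 9 counts in si-SNHG17 libraries and 7, 6 and 0 in si-NC libraries.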
